A study of Petromyzon marinus with 10 samples.

Results

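CREM and GPR12, 2 genes whose mammalian counterparts sit at opposite ends of cyclic AMP (cAMP) signalling, and MSTRG.29315, an unnamed locus that runs past GPR12 on the same strand, were followed in the brainstem of larval sea lampreys (Petromyzon marinus). These 3 loci, out of 57134 assembled loci, were chosen by their identifiers from the study's list of loci that differed between baclofen and control in these same libraries, so the difference between the groups selected them and is given here as a description that supports nothing by itself. All animals had a complete transection of the spinal cord, were of the river Ulla (Spain) ecotype and were 5 to 7 years old. The 5 Baclofen libraries came from injured larvae treated with baclofen, an agonist of the GABAB receptor, and the 5 Control libraries from injured larvae without the drug. Each library was made from the polyadenylated RNA of several brainstems combined, and p-values measure the spread between such pools. The series text dates the libraries to 29 days after injury. The study's methods give that day to its GABA experiment and an earlier day to baclofen and its controls. No result here uses the day. No uninjured group was among these libraries.

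The GABAB receptor, on which baclofen acts, couples to inhibitory G proteins that lower adenylyl cyclase activity and with it cAMP. GPR12 is an orphan receptor that, in mammalian cells, couples to the stimulatory G protein and raises cAMP without a known added ligand, and in rodents it is expressed mainly in the brain. CREM, the cAMP-responsive element modulator, is a leucine zipper transcription factor that binds the DNA element through which cAMP acts on genes. In mammals its isoforms include activators and repressors, and a short repressor, ICER, is itself induced by cAMP. Counts per locus do not separate such isoforms.

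The libraries held 12774386 to 19566056 counted fragments. Totals averaged 16849003 ± 2520131 in Baclofen and 15900760 ± 1949757 in Control libraries (SD, n = 5 each), and did not differ beyond their spread (two-sided exact permutation test, p = 0.532, smallest possible 0.00794). Mapping rates, which the study gives per library and which differ among them, were not compared here. With all libraries 82 loci were called, and 426 without Control replicate 1, the highest count of any fit with a library left out. Levels of 12 marker loci were read, all with counts in every library. They were taken from the study's lists of changed loci, so their presence could not test the brainstem label. Summed normalised counts of 5 neuronal markers ranged over 18223 to 20464 in Baclofen and 17299 to 19248 in Control libraries, those of 3 glial and ependymal markers over 11516 to 13041 in Baclofen and 11053 to 12465 in Control libraries. Those of 4 blood and immune markers ranged over 914 to 1141 in Baclofen and 999 to 1247 in Control libraries. The ranges of the sums overlapped for each cell class, but CPLX1 made up 77.2% of the neuronal sum and VIM 90.0% of the glial one. Single markers differed between the groups: 3 of 5 neuronal markers were called by DESeq2 (CPLX1 and MAP6 higher, CASK lower with baclofen), 1 of 3 glial markers (SoxE1, higher) and 4 of 4 blood and immune markers (PTPRC and TLR2 higher, VLRA and CD62L lower), beside 0.345% of all tested loci. These 8 are on the list the study drew from these libraries, and the part of such cells in the results was not tested. In bulk tissue, fewer cells of a type and less RNA per cell cannot be told apart.

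CREM (MSTRG.3194) lay on the plus strand of scaffold PIZI01000004.1 (Pmar_germline 1.0), from 4585052 to 4607333. Its 6 exon records merged into 4 blocks of 136, 128, 163 and 4226 bp, so the last block held 90.8% of the 4653 exon bases. A pair of other loci on its strand and 1 on the opposite strand covered part or all of its span, but none shared an exon base with it. The counts of CREM therefore came from exon bases that no other assembled locus claimed.

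CREM had 400, 445, 548, 483 and 568 normalised counts in Baclofen replicates 1 to 5, against 244, 357, 282, 267 and 266 in Control replicates 1 to 5. The lowest Baclofen library was above the highest Control library, so all 25 pairings of a Baclofen with a Control library had the Baclofen value on top. Means were 489 ± 70.0 in Baclofen and 283 ± 43.3 in Control libraries (SD, n = 5 each). The log2 fold change was 0.79 ± 0.12 (SE), or 1.73-fold with a 95% interval of 1.47 to 2.04. With a DESeq2 adjusted p of 1.46e-07 it ranked 8th by p among tested loci that were higher with baclofen.

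GPR12 (MSTRG.29343) lay on the plus strand of scaffold PIZI01000050.1, from 7517283 to 7546407. Its 16 exon records merged into a block of 771 bp and, 18.0 kb further on, a block of 10323 bp that held 93.0% of the exon length. On the opposite strand 6 loci crossed its span, and 2 of them shared 1029 exon bases with it. Counting used strand, so fragments of those loci were not counted for GPR12.

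GPR12 had 1476, 1504, 1480, 1681 and 1653 normalised counts in Baclofen replicates 1 to 5, against 1209, 1157, 1220, 999 and 1197 in Control replicates 1 to 5. The groups did not overlap, and Control replicate 4 was the lowest library. It averaged 1559 ± 100.1 in Baclofen and 1156 ± 91.0 in Control libraries (SD, n = 5 each). The log2 fold change was 0.43 ± 0.07 (SE), or 1.35-fold with a 95% interval of 1.22 to 1.49, and the DESeq2 adjusted p of 1.69e-06 ranked 14th among the loci that were higher.

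MSTRG.29315 had 660, 770, 771, 762 and 781 normalised counts in Baclofen replicates 1 to 5, against 697, 573, 594, 589 and 560 in Control replicates 1 to 5. Here the groups overlapped, since Baclofen replicate 1 was below Control replicate 1, and 24 of 25 pairings had the Baclofen value on top. Means were 749 ± 50.2 in Baclofen and 602 ± 54.3 in Control libraries (SD, n = 5 each). The log2 fold change was 0.31 ± 0.08 (SE), or 1.24-fold with a 95% interval of 1.116 to 1.384, with a DESeq2 adjusted p of 0.0275 (rank 56 among higher loci). With the quasi-likelihood test of edgeR the adjusted p was 0.241, and the call was also lost when any library other than Baclofen replicate 1 or Control replicate 1 was left out. Without Baclofen replicate 1 the log2 fold change was 0.35 with an adjusted p of 0.00306 (DESeq2), and without Control replicate 1 it was 0.37 with an adjusted p of 6.39e-05.

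Leaving out Control replicate 1 gave more called loci than leaving out any other library. In that fit the log2 fold change of CREM was 0.74 with a DESeq2 adjusted p of 6.59e-07, and that of GPR12 was 0.45 with 5.23e-07.

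**Figure D1:**
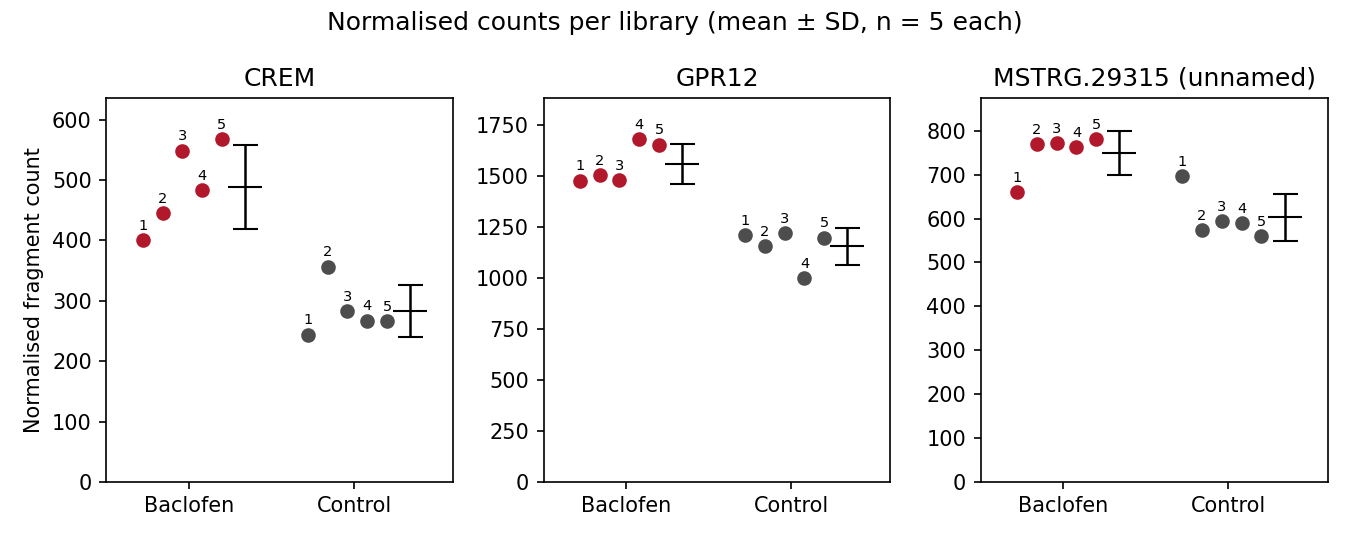
Normalised fragment counts of CREM, GPR12 and MSTRG.29315 in each library, with the replicate number above each point and bars for the mean ± SD (n = 5 each). The Baclofen points of CREM (400 to 568) and GPR12 (1476 to 1681) lie above all Control points (244 to 357 and 999 to 1220), while those of MSTRG.29315 overlap.

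Across all loci, 82 of 23794 tested loci passed an adjusted p of 0.05 (DESeq2), or 0.345%, and 64 of them, or 0.269% of those tested, were higher with baclofen, as all 3 loci described here were. Of the tested loci 182, or 0.765%, were higher with no overlap between the groups, as CREM and GPR12 were. With edgeR 23 of 27244 tested loci were called higher, or 0.0844%, CREM with an adjusted p of 0.0107 and GPR12 with 0.0115. Nothing is read from these shares, since the loci were selected on the same contrast. At the threshold, the last locus inside it had an adjusted p of 0.0469 and a log2 fold change of -0.50 ± 0.13, and the first outside it 0.0516 and 0.34 ± 0.09.

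Levels were compared per length of exon, in normalised counts per kb. MSTRG.29315 was highest with 183 ± 12.2 per kb in Baclofen (161 to 190) and 147 ± 13.2 in Control libraries (136 to 170). GPR12 followed with 140 ± 9.02 in Baclofen (133 to 152) and 104 ± 8.20 in Control libraries (90.1 to 110). CREM was lowest with 105 ± 15.04 in Baclofen (86.0 to 122) and 60.9 ± 9.30 in Control libraries (52.3 to 76.6). Within each group the library ranges of neighbours in this order did not overlap. Over all libraries CREM stood at percentile 60.2, GPR12 at percentile 72.1 and MSTRG.29315 at percentile 79.6 of tested loci by counts per kb, all in the upper part of the distribution. These levels rest on the assembled exon lengths.

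Of the 3 loci, CREM also varied most among the libraries of a group. Its coefficient of variation was 14.3% in Baclofen and 15.3% in Control libraries, against medians of 7.85% and 9.54% over 5711 tested loci whose mean was within a factor of 2 of its own. For GPR12 it was 6.42% in Baclofen and 7.87% in Control libraries, beside medians of 5.95% and 6.80% over 4269 such loci. MSTRG.29315 had 6.71% in Baclofen and 9.02% in Control libraries, beside medians of 6.74% and 8.04% over 5472 such loci, close to what loci of its level showed.

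MSTRG.29315 spanned 998.9 kb of scaffold PIZI01000050.1 on the plus strand, from 6559585 to 7558514, and so ran over the whole of GPR12. With it, 145 of all loci had a span of this length or more. Its 4102 exon bases fell into 6 blocks of 28, 97, 267, 2534, 819 and 357 bp, with gaps of up to 507 kb between them. The first 3 blocks, 392 bp in all, lay far upstream of GPR12. The other 3 held 3710 bp, or 90.4% of its exon length, and lay downstream of GPR12, the nearest separated by 54 bp from the last base of GPR12. Exon bases shared between both loci numbered 0, and MSTRG.29315 ended 12.1 kb past GPR12. No gene name was given to MSTRG.29315 in the study's lists, and whether its downstream blocks and GPR12 belong to the same transcript was not tested.

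**Figure D2:**
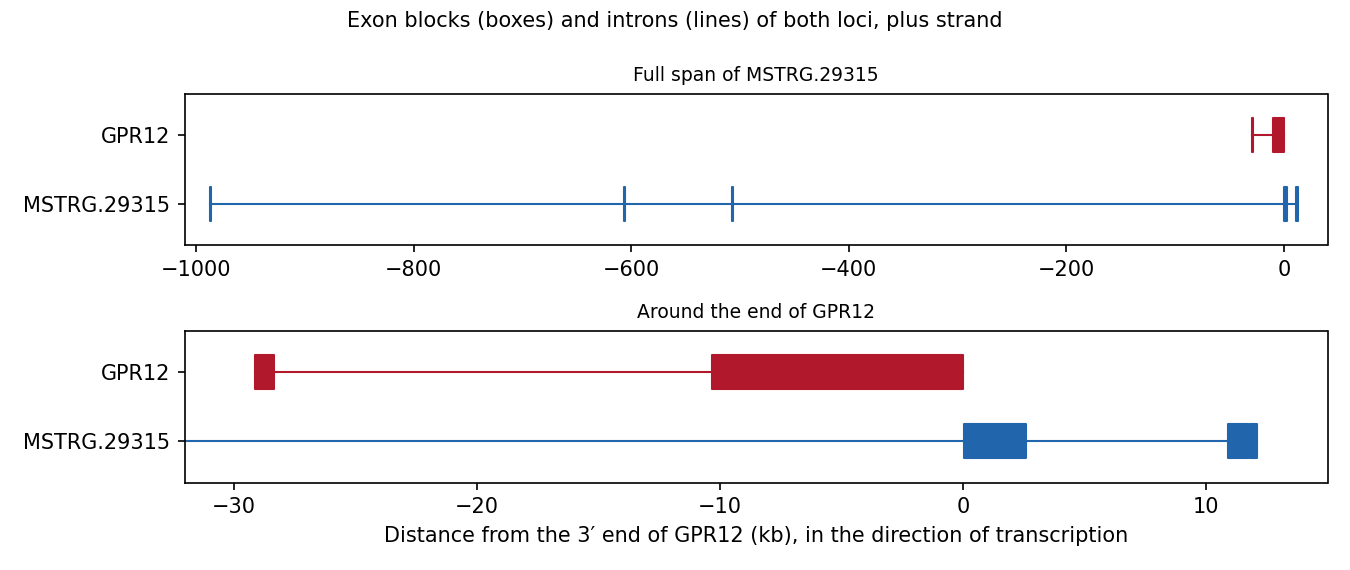
Exon blocks (boxes) and introns (lines) of GPR12 and MSTRG.29315 on the plus strand, by distance in kb from the end of GPR12, over the full span (top) and near that end (bottom). The block of 2534 bp of MSTRG.29315 is 54 bp away from the end of GPR12, and its 3 small blocks lie far upstream.

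The counts of the adjoining loci were therefore set side by side. The ratio of MSTRG.29315 to GPR12 was 0.447, 0.512, 0.521, 0.454 and 0.472 in Baclofen replicates 1 to 5, against 0.576, 0.495, 0.487, 0.590 and 0.468 in Control replicates 1 to 5. It averaged 0.481 ± 0.0338 in Baclofen and 0.523 ± 0.0556 in Control libraries (SD, n = 5 each), and the ranges overlapped. With the fragments of both loci summed, the locus had 2136 to 2443 normalised counts in Baclofen and 1588 to 1906 in Control libraries, with no overlap. Its log2 fold change was 0.39 ± 0.06, with a DESeq2 adjusted p of 9.14e-07, between the values of the separate loci, as a sum of both would be.

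Loci around CREM, GPR12 and MSTRG.29315 were not used in choosing them, and their values are given as a description. Within 100 kb of any of these lay 55 other loci, of which 31 were tested. Of the tested loci, 3 were near CREM, 11 near GPR12 and 28 near MSTRG.29315, some of them near more than 1. Among those 28, 22 crossed the 998.9 kb span of MSTRG.29315, which is mostly intron, so many lay far from GPR12. DESeq2 called 0 of these 31, where 0.345% of all tested loci were called, so 0 calls among so few loci say little. An unadjusted DESeq2 p under 0.05 was seen in 3, 1 higher and 2 lower, beside 1381 of all 23794 tested loci. edgeR called 0 of 35 tested and likewise gave 3 an unadjusted p under 0.05, beside 1750 of all 27244 loci it tested. The median log2 fold change of the 31 was -0.03, beside -0.01 over all tested loci. Of the 31, 14 lay above and 17 below 0. In none of them were the groups apart, beside 182 higher and 115 lower of all 23794 tested loci. With so few neighbours this too says little. The lowest of them, singled out after its values were seen, lay on the plus strand upstream of GPR12 from 7407696 to 7417321. It averaged 72.3 ± 10.5 normalised counts in Baclofen and 114 ± 37.6 in Control libraries, a log2 fold change of -0.66 ± 0.21 with a DESeq2 adjusted p of 0.204. The highest, also singled out afterwards, lay on the plus strand within the span of MSTRG.29315, from 7363374 to 7363770. It averaged 23.5 ± 6.32 in Baclofen and 15.9 ± 4.48 in Control libraries. Its log2 fold change was 0.54 ± 0.31 with a DESeq2 adjusted p of 0.943.

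CREM had close neighbours on its own strand that did not pass the test. MSTRG.3192, from 4537464 to 4663920, starts before CREM and ends after it, with its exons outside those of CREM. It had 723, 959, 961, 1020 and 1074 normalised counts in Baclofen replicates 1 to 5, against 1145, 996, 783, 1082 and 806 in Control replicates 1 to 5. The groups overlapped over most of their range, and the log2 fold change was -0.02 ± 0.12 with a DESeq2 adjusted p of 0.998. MSTRG.3195, singled out after its values were seen, starts 2.4 kb after the end of CREM and averaged 79.7 ± 22.3 in Baclofen and 86.7 ± 4.30 in Control libraries, with a log2 fold change of -0.13 ± 0.18 and a DESeq2 adjusted p of 0.998. Around GPR12, 11 neighbours were tested, 4 above and 7 below 0, with log2 fold changes from -0.66 to 0.12. One on the opposite strand that crosses the whole of GPR12, from 7443141 to 8271864, was abundant, with 6463 ± 433 normalised counts in Baclofen and 6414 ± 415 in Control libraries, a log2 fold change of 0.01 ± 0.06.

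**Figure D3:**
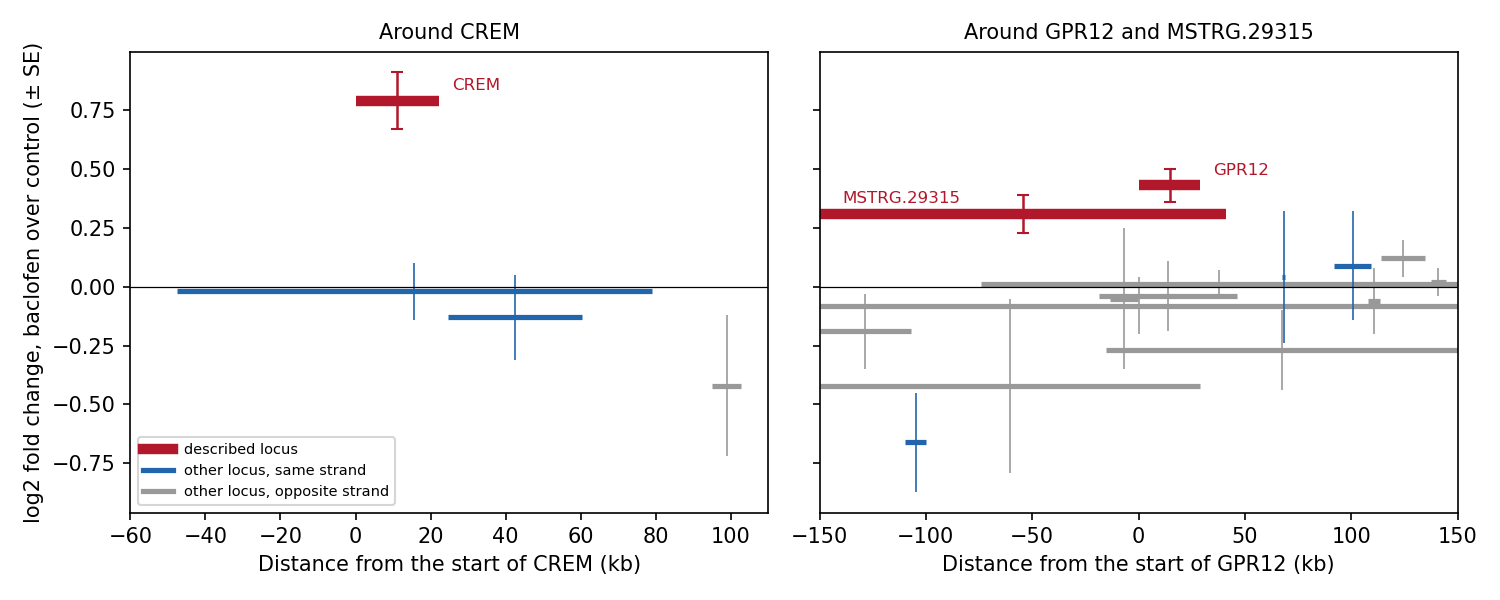
Log2 fold change (baclofen over control, ± SE) of each tested locus near CREM (left) and near GPR12 (right) by distance from the start of that gene in kb, with horizontal bars for the span of each locus. CREM (0.79), GPR12 (0.43) and MSTRG.29315 (0.31) lie above 0, while same-strand and opposite-strand neighbours in view range from -0.66 to 0.12. Tested neighbours of MSTRG.29315 out of view reach 0.54.

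A list of 4 genes whose mammalian counterparts respond to cAMP was read beside CREM. Of these, 2 rose, 1 fell and 1 did not pass the test, with a median log2 fold change of 0.18 beside -0.01 over all tested loci and 0.345% of tested loci called. DUSP1, SGK1 and TAT are on the list the study chose on these libraries and are no independent evidence of a direction. CARTPT, listed by the study in its GABA experiment, was the only 1 not chosen on them.

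SGK1, a serum- and glucocorticoid-regulated kinase, had 1262, 1420, 1532, 1362 and 1446 normalised counts in Baclofen replicates 1 to 5, against 905, 1147, 1055, 896 and 1018 in Control replicates 1 to 5. It rose without overlap of the groups, by a log2 fold change of 0.49 ± 0.08 with a DESeq2 adjusted p of 2.75e-06. DUSP1, a phosphatase that switches off MAP kinases, averaged 368 ± 28.1 in Baclofen and 270 ± 36.4 in Control libraries. It rose by 0.45 ± 0.10 with a DESeq2 adjusted p of 0.00570, but edgeR gave 0.126, and the call was lost without Baclofen replicate 3, Baclofen replicate 5 or Control replicate 5, where the adjusted p reached 0.0695. TAT, the tyrosine aminotransferase that hormones and cAMP induce in rat liver, fell to 2982 ± 408 in Baclofen, against 4674 ± 824 in Control libraries, a log2 fold change of -0.65 ± 0.12 with a DESeq2 adjusted p of 3.32e-05. CARTPT, the precursor of the CART neuropeptides, had 1980 to 2372 in Baclofen and 2064 to 2552 in Control libraries, which overlapped, with a log2 fold change of -0.09 ± 0.07 and a DESeq2 adjusted p of 0.998.

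GPR12 was read beside GPR75 and GABRA5, the other loci of the study's lists that were taken as neurotransmitter or orphan receptors of the neuron surface. Nuclear and immune receptors on those lists were not counted. Of the 2, 1 rose and 1 did not pass the test, beside 0.345% of all tested loci called. Their median log2 fold change was 0.09, beside -0.01 over all tested loci. It is only the midpoint of 2 values, 1 of a locus chosen on these libraries, and gives no direction. GPR75, also classed as an orphan receptor coupled to G proteins, had 651, 695, 684, 692 and 750 normalised counts in Baclofen replicates 1 to 5, against 610, 510, 542, 583 and 567 in Control replicates 1 to 5. The groups did not overlap, and the log2 fold change was 0.30 ± 0.07 with a DESeq2 adjusted p of 0.00938. GPR75 is on the list chosen on these libraries. Its call was lost with edgeR (adjusted p = 0.150) and without Baclofen replicate 2, 4 or 5 or Control replicate 2 or 5 (DESeq2 adjusted p up to 0.162). GABRA5, an alpha subunit of the GABAA receptor channel, averaged 1200.1 ± 77.4 in Baclofen and 1310.2 ± 181 in Control libraries, with a log2 fold change of -0.13 ± 0.09 and a DESeq2 adjusted p of 0.989.

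The treatment contrast chose the loci, so the spread of the libraries within each group was examined as another measure. It is not independent of that choice, since the p-values behind the choice also depend on this spread. Each library's log2 (normalised count + 1) was taken as its deviation from the mean of its group and correlated between loci over the 10 libraries, which is a description with no test. CREM and GPR12 had a Pearson r of 0.18 (Spearman 0.31), at percentile 51.7 for CREM and 74.1 for GPR12. The median r with the 16374 loci compared was 0.16 for CREM and -0.07 for GPR12. CREM and MSTRG.29315 had 0.05 (0.16), at percentile 40.5 for CREM and 59.0 for MSTRG.29315. GPR12 and MSTRG.29315 had 0.32 (0.41), at percentile 84.2 for GPR12 and 77.6 for MSTRG.29315. That r was 0.08 without Control replicate 4 and Baclofen replicate 1, the 2 libraries farthest from the median of GPR12. Within Baclofen libraries CREM and MSTRG.29315 were highest in replicate 5 and GPR12 in replicate 4, and within Control libraries CREM was highest in replicate 2, GPR12 in replicate 3 and MSTRG.29315 in replicate 1.

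Among 63 named loci compared, the one most like CREM in this measure was KLF10, a Krüppel-like transcription factor, with r = 0.95 (Spearman 0.95), and 0.91 without Control replicate 2 and Baclofen replicate 5. CREM deviated by -0.28, -0.12, 0.18, -0.01 and 0.23 in Baclofen replicates 1 to 5 and by -0.20, 0.34, 0.01, -0.07 and -0.08 in Control replicates 1 to 5. KLF10 deviated by -0.17, -0.12, 0.11, 0.03 and 0.14 in Baclofen replicates 1 to 5 and by -0.06, 0.16, -0.01, -0.01 and -0.08 in Control replicates 1 to 5. Both were lowest for their group in Baclofen replicate 1, as GPR12 and MSTRG.29315 also were, and highest in Control replicate 2. The highest r of any of the 16374 loci with CREM was 0.96. TRIB2, a Tribbles pseudokinase, followed with r = 0.90 and EMP2, an epithelial membrane protein, with 0.88. KLF10 and TRIB2 are on the study's baclofen list, with log2 fold changes of 0.45 and 0.41 here. EMP2, from its GABA list, had 0.02 with a DESeq2 adjusted p of 0.998. SGK1 (0.83) and DUSP1 (0.82) of the cAMP-responsive list stood at percentiles 99.2 and 99.0 of all loci compared with CREM, whereas CARTPT (0.15) and TAT (-0.03) stood at 49.2 and 34.7. SGK1, DUSP1 and TAT are on the list chosen on these libraries. KLF10, TRIB2 and EMP2, outside the cAMP-responsive list, had a higher r with CREM than SGK1 and DUSP1 had. All these values share their libraries and size factors, and a link to cAMP was not tested.

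Among the named loci, GPR12 was most like NR1D1, a nuclear receptor of the circadian clock (r = 0.61). HEY1, a transcriptional repressor of the Notch pathway (0.57), and GTF2IRD2, a relative of the transcription factor TFII-I (0.55), followed. They stood at percentiles 97.1, 96.2 and 95.4 of all loci compared with GPR12, so many other loci were more like it. For MSTRG.29315 the nearest named loci were GPR75 (0.70), SULF1, a sulfatase that acts on heparan sulfate (0.70), and RNF24, a RING finger protein (0.66). They stood at percentiles 97.2, 96.95 and 95.9 of all loci compared with MSTRG.29315. GPR75 had a Spearman value of 0.59 with it. Without Control replicate 1 and Baclofen replicate 1, the libraries farthest from the median of MSTRG.29315, the r with GPR75 fell to 0.44. These values were lower than those of CREM and KLF10, and the highest r of any locus was 0.98 with GPR12 and 0.95 with MSTRG.29315. The named loci nearest to CREM, GPR12 and MSTRG.29315 were different in each case. Each was picked as the best of 63, and such a pick stands at a high percentile by selection alone. Nothing is therefore read from the names that came nearest to GPR12 and MSTRG.29315.

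**Figure D4:**
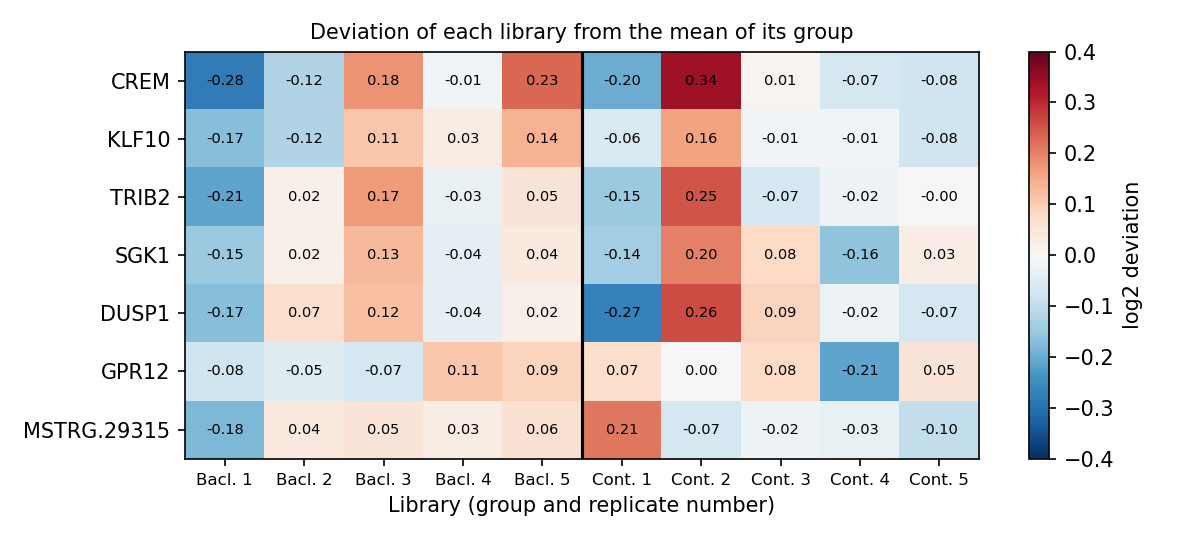
Deviation of each library from its group mean in log2 (normalised count + 1), for CREM, 4 loci with r from 0.82 to 0.95 to it, GPR12 and MSTRG.29315, with Baclofen libraries left of the line and Control libraries right of it. CREM, KLF10, TRIB2, SGK1 and DUSP1 are all highest of the Control libraries in replicate 2, GPR12 in replicate 3 and MSTRG.29315 in replicate 1. All 7 loci are lowest of the Baclofen libraries in replicate 1. EMP2 (r = 0.88 with CREM) is not shown.

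Under every alternative tried, CREM and GPR12 stayed higher with baclofen. The alternatives refit the counts on which both were selected, so they add no independent evidence. When each library was left out in turn, the log2 fold change of CREM ranged from 0.73 to 0.89 and that of GPR12 from 0.38 to 0.45, with DESeq2 adjusted p-values up to 1.93e-05 and 2.46e-04. MSTRG.29315 kept its direction at 0.29 to 0.37 but passed the threshold in only 2 of these 10 fits.

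**Figure D5:**
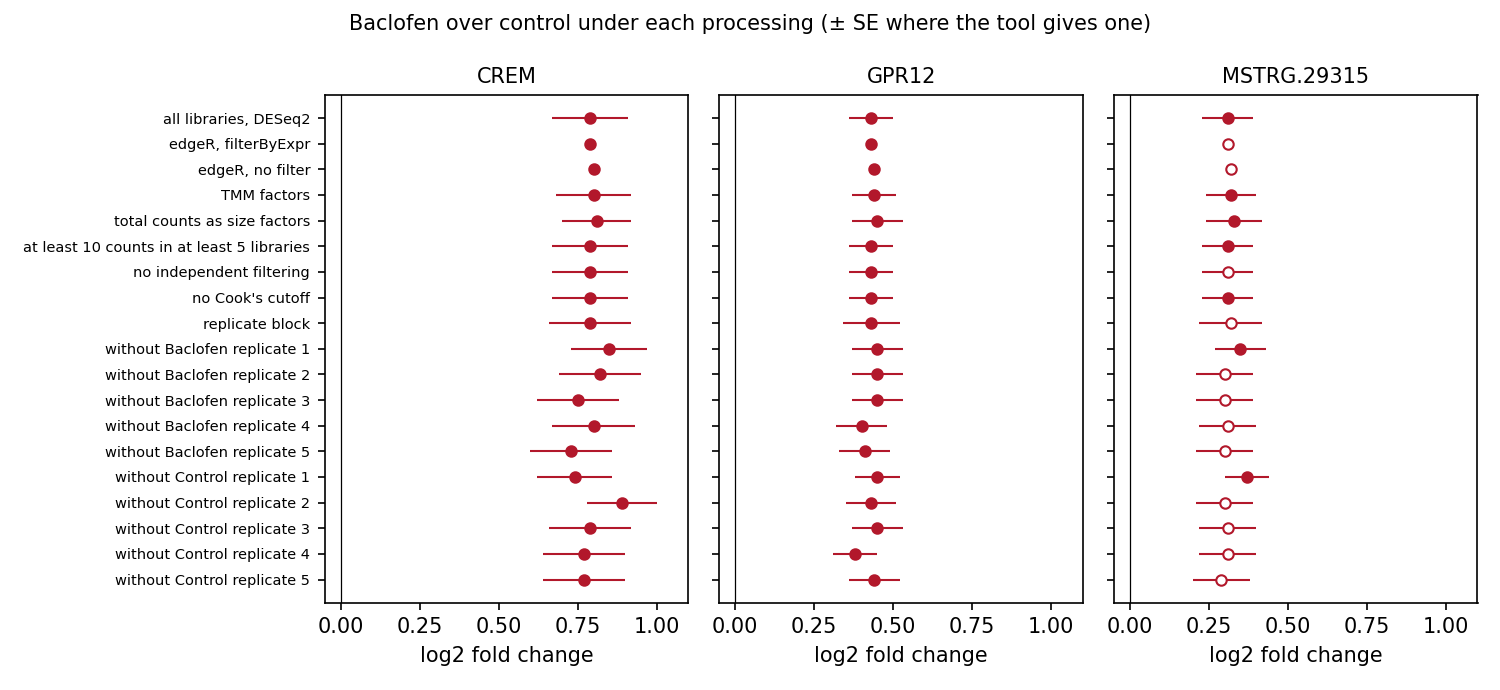
Log2 fold change (baclofen over control, bars ± SE) of CREM, GPR12 and MSTRG.29315 under each way of processing, with filled points for an adjusted p under 0.05 and open points otherwise. All points lie right of 0, those of CREM and GPR12 are all filled, and 12 of the 18 alternatives for MSTRG.29315 are open.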

How the data were processed

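The authors trimmed paired reads of stranded polyA libraries with Fastp, aligned them with STAR in 2-pass mode to the sea lamprey germline assembly (Pmar_germline 1.0), assembled loci with StringTie and counted fragments per locus and strand with featureCounts (versions not given in the sources used here). The deposited values are raw counts, 12774386 to 19566056 per library. Fragments that touch exons of several loci on a strand are assigned to none by the counter's default, and 54 bp separate the end of GPR12 from the next exon block of MSTRG.29315.

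Here DESeq2 1.42.0 in R 4.3.3 was run on all 57134 loci (2 broken lines rejoined), with no term but treatment, size factors from the median of ratios, default filters and Benjamini-Hochberg adjustment at 0.05. This left 23794 tested loci. Normalised counts are counts divided by size factors. Alternatives used edgeR 4.0.16, other scalings and filters, a replicate block, each library left out, the summed GPR12 locus and windows of other widths than 100 kb.

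Locus names came only from the study's lists, whose values were not used. Named were the 3 loci, loci overlapping them, the cAMP-responsive and receptor lists, and the 3 named loci most like each (mean count of at least 50). The loci, lists and rules were chosen with earlier results of these data known. A planned search for cAMP response elements was not run, since promoter sequence was not used here. The scripts were tested on simulated data.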

Additional observations from a re-analysis of the deposited data

Results flagged for a closer look

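In 3 of 28 groups of 5 libraries examined, a single library lay far from the other 4, with a gap above 0.71 of the whole range of the group. About 1 in 20 groups, or 1.4 here, would show this by chance. GPR12 had 999.2 normalised counts in Control replicate 4, and 1157 to 1220 in the other Control libraries. MSTRG.29315 had 659.9 in Baclofen replicate 1, and 762 to 781 in the other Baclofen libraries. It had 696.6 in Control replicate 1, and 560 to 594 in the other Control libraries, and these last 2 libraries are those in which its groups overlapped.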

How the results depend on the processing

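CREM kept its direction and its side of the threshold in 18 of 18 alternatives, and GPR12 in 19 of 19. Both loci were selected on this contrast in these libraries, so refits of the same counts are no independent evidence. The 19 include the summed locus, whose direction followed from its parts, both higher with baclofen. MSTRG.29315 kept its direction in 18 of 18 but its call in 6. It was not called with edgeR (log2 fold change 0.31, adjusted p = 0.241), with edgeR and no filter on low counts (0.32, adjusted p = 0.258) or with DESeq2 without independent filtering (0.31, adjusted p = 0.0599), and leaving out each library gave 0.29 to 0.37. The count of called loci, 82, became 25 with edgeR and 30 with edgeR and no filter, and 49 (without Baclofen replicate 5) to 426 (without Control replicate 1) with a library left out. The receptor list had 0 calls with edgeR under either filter, and 0 to 1 with a library left out. The cAMP-responsive list had 2 to 3 calls with a library left out. Loci near CREM, GPR12 and MSTRG.29315 had 0 calls in all 20 alternatives, both other windows included. This says little for so few loci, since only 0.345% of all tested loci were called with all libraries. The causes were not tested. Total counts as size factors moved the median by 0.02 on the log2 scale.

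Same-numbered libraries did not deviate together (r from -0.10 to 0.01 over the 5 pairs, 0 of 5 pairs best with their own number). With the replicate block the count of called loci was 45, CREM had 0.79 (DESeq2 adjusted p = 2.41e-06), GPR12 0.43 (0.00104), MSTRG.29315 0.32 (0.572), and the receptor list 0 calls.

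Loci with a mean normalised count under 14.35 were not tested. The replicates are pools, so the spread between animals was not measured. Borders of GPR12 and MSTRG.29315 are those of the assembly.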
